A study of Trichoderma reesei with 9 samples.

Results

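The genes described here were nearly silent in *Trichoderma reesei* RUT-C30 on glucose and were transcribed at similar levels on high and low melanin necromass, the dead mycelium of the fungus *Hyaloscypha bicolor*. Melanin is a dark wall polymer that resists breakdown. They were selected by their own measured levels. A member had a mean under 1 count per 1000000 counts (CPM, scaled to the column total) on glucose, at least 10 CPM on each necromass type, and a ratio of the high to the low melanin mean above 0.5 and under 2. The rule took 64 of the 9849 genes in the table, and all 64 also passed the filter on low counts that left 9312 genes for testing.

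Each library came from 1 of 9 cultures of RUT-C30, a strain whose *cre1* gene is truncated, so that every group carried this lesion in glucose repression. After a period without carbon and 7 days in Highley's medium, 3 cultures each were harvested from 0.45% (w/v) high melanin necromass, 0.45% (w/v) low melanin necromass and 1% (w/v) glucose. Each necromass type was harvested in bulk, so the 3 cultures of a type shared 1 lot of it. The high and low melanin types were grown at different culture volumes and shaking speeds. By the paper's chemistry they also differed in sugars and N-containing components. Differences between them therefore cannot be tied to melanin alone. The kind of substrate and its concentration also changed together between necromass and glucose and cannot be told apart. The paper allows that glucose and necromass cultures may have been in different growth phases at harvest, which cannot be separated from the substrate either. Poly(A) RNA of each whole culture was sequenced, in which a lower level per cell and fewer expressing cells cannot be told apart.

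Saprotrophic fungi feed by secreting enzymes that cut polymers outside the cell and by taking up the sugars, amino acids and other small products through membrane permeases. Many of these genes are kept low while a simple sugar is plentiful, and the repressor Cre1 is one part of that control in *Trichoderma*. Ascomycete walls hold chitin, glucans and mannoproteins, whereas pectin, the substrate of several enzymes met here, is a polymer of plant walls.

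Total counts lay between 21447367 and 24635281 in the high melanin libraries, between 18074631 and 22327638 in the low melanin libraries and between 19602387 and 20541445 in the glucose libraries. The 3 most abundant genes on necromass took 21.6% to 25.5% of the counts in the high melanin libraries, 14.5% to 18.1% in the low melanin libraries and 0.0340% to 0.0588% in the glucose libraries. CPM values on necromass are shares of totals that these genes filled in part. At this depth 3 counts equal 0.122 to 0.166 CPM.

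Summed over the 64 genes, the level was 2935 ± 93.2 CPM on high melanin necromass, 2700.3 ± 54.4 CPM on low melanin necromass and 34.3 ± 2.93 CPM on glucose (SD, n = 3 each). The genes therefore made up 0.293%, 0.270% and 0.00343% of the counts on these substrates. Per gene, the mean level ran from 10.8 to 379 CPM on high melanin necromass with a median of 23.2, from 10.2 to 291 CPM on low melanin necromass with a median of 18.5, and from 0.0166 to 0.979 CPM on glucose with a median of 0.557. Most members were of modest abundance. Averaged over the 6 necromass libraries, 29 genes stood between 10 and 20 CPM, 24 between 20 and 50, 3 between 50 and 100, and 8 above 100. In that average the median member ranked at the 37.0th percentile of all tested genes, and the highest at the 96.7th. On glucose the highest of the 64 reached only the 7.75th percentile.

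**Figure D1:**
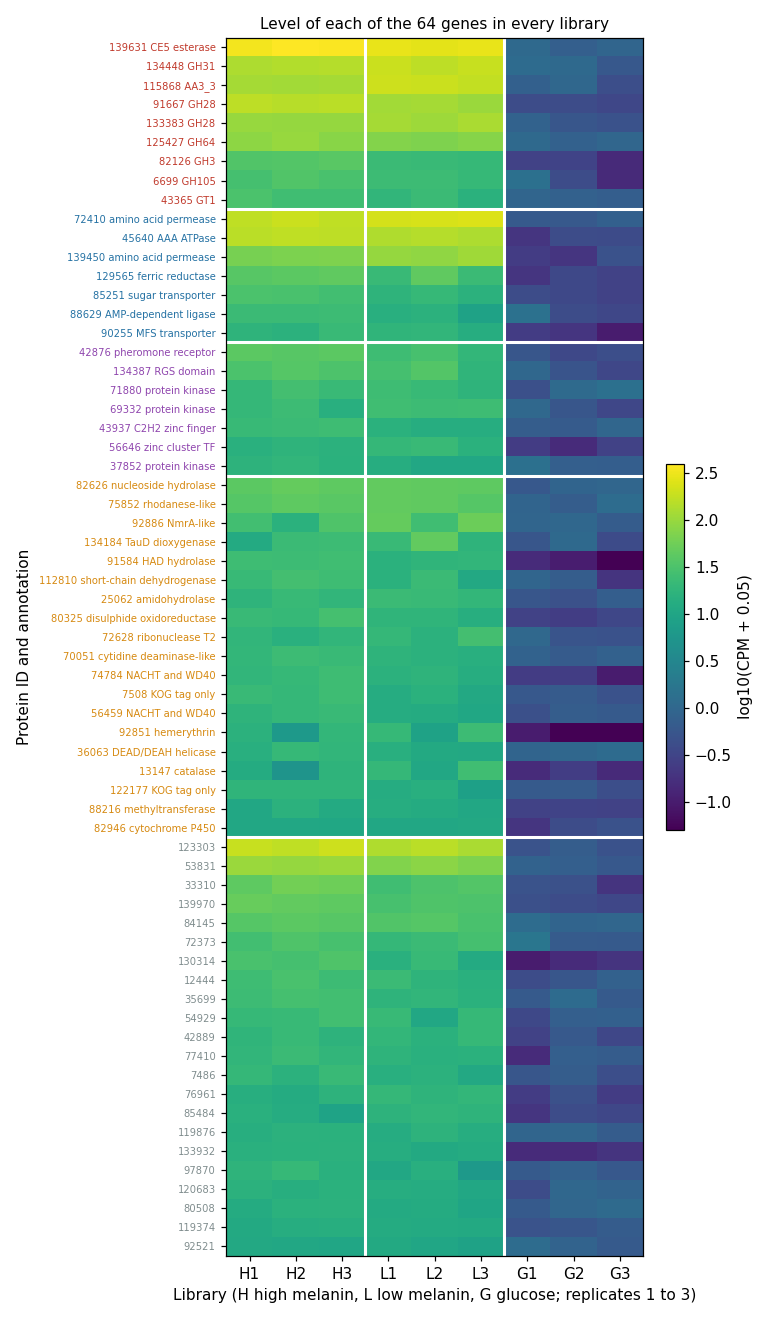
Colour gives log10(CPM + 0.05) of each of the 64 genes (rows, by protein ID and annotation) in the 9 libraries (columns: H high melanin, L low melanin, G glucose, replicates 1 to 3). Row labels are coloured by role in the order CAZymes, transporter list, signalling and regulation, other annotated genes and genes without annotation; the glucose columns are dark throughout, and the brightest row is the CE5 esterase 139631.

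The mean on high melanin necromass was 12.8 to 836 times the glucose mean, with a median of 49.1, and the mean on low melanin necromass was 12 to 1068 times the glucose mean, with a median of 49.3. No glucose library overlapped a necromass library for any of the 64 genes, whereas all high melanin libraries lay above all glucose libraries in 35.3% of tested genes and all low melanin libraries in 38.0%. The lowest necromass library still exceeded the highest glucose library by 6.46 times at least and by 25.8 times at the median. A gene was called up or down at an adjusted p under 0.05 and an absolute log2 fold change of at least 2 in edgeR's quasi-likelihood fit. All 64 genes were called up on high melanin necromass and all 64 on low melanin necromass, against 13.5% and 12% of all tested genes (8.80% and 7.18% were called down), but the rule used these contrasts, so the counts describe the choice and are no result. Both contrasts share the 3 glucose libraries.

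The rule was also applied to 2 replicate numbers of each substrate and read in the 3 libraries left aside, a check added after the data were seen. Replicates 2 and 3 chose 70 genes, of which 54 stood under 1 CPM in glucose replicate 1, 69 reached 10 CPM in both necromass libraries of replicate 1 and 52 met every limit there. Of 65 genes chosen on replicates 1 and 3, 52 met every limit in replicate 2. Of 71 chosen on replicates 1 and 2, 44 did so in replicate 3. In the libraries left aside the lower of the 2 necromass levels was at least 5.54, 12.1 and 5.94 times the glucose level for every gene with a glucose count. The fold between necromass and glucose was thus also seen in the libraries left aside, for genes with a glucose count there. Of the genes chosen, 61, 58 and 59 were also members, which had been chosen on all libraries. Cultures of a necromass type also shared its lot. The check is therefore a description and no independent test of the members. Single libraries often crossed one of the limits. Some members lay close to them. A glucose library at 1 CPM or more was found for 15 members, and 8 had a necromass library under 10 CPM.

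At the glucose limit, protein ID 84145 was the nearest inside, with a mean of 0.979 CPM, and protein ID 128171 the nearest outside, with 1.01 CPM. Protein ID 92521 was the nearest to both necromass limits from inside, at 10.8 CPM on high and 10.2 CPM on low melanin necromass. Just outside lay protein ID 88800, with 9.82 CPM on the high melanin type, and protein ID 69337, with 9.84 CPM on the low melanin type. Ratios of high to low melanin inside the window ended at 0.598 (protein ID 92886) and 1.92 (protein ID 130314), and the nearest ratios outside were 0.441 (protein ID 91509) and 2.04 (protein ID 138427). Of the 79 genes that met the glucose and necromass limits at any ratio, 10 had a ratio of 2 or more and 5 of 0.5 or less.

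Annotation was not used by the rule. All 64 genes have an entry in the study's annotation table of genes that changed, of which the copy used here held 2086 genes. A listed gene is one with an entry in that copy. That table holds few of the unchanged genes, so shares are given beside those of the 1029 listed genes that were called up on both necromass types. Counts of calls within a listed family, given below, likewise come from genes that had mostly changed, and they are no measure of the whole family. No annotation was given for 22 of the 64 genes (34.4%, against 33.1% of the 1029). CAZyme tags were carried by 9 (14.1%, against 8.75%) and transporter classes without a CAZyme tag by 7 (10.9%, against 10.5%). Amino acid permeases made up 2 of the 64 (3.13%, against 0.680%), and a single member carried a peptidase class (1.56%, against 3.40%). None of the 24 ankyrin repeat genes, 14 cytochrome P450 genes with the Pfam tag and 8 HET domain genes called up on both necromass types was a member. Other short lists, such as the ABC transporters (4 of the 1029), held no member either. The members are only 64 of the 1029, so few or none would be met in lists of this size at that share. The lists were chosen with earlier results of these data known, and none was tested for enrichment.

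Carbohydrate-active enzymes had the highest summed level of the role groups. Together they summed to 1059 CPM on average over the necromass libraries, against 662 CPM for the 22 genes without annotation, 539 CPM for the transporter list, 400 CPM for 19 other annotated genes and 158 CPM for 7 genes of signalling and regulation. These 5 groupings were drawn after the values were seen.

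The most abundant member, protein ID 139631, encodes a carbohydrate esterase of family CE5 with a cellulose-binding module (CBM1), and CE5 holds cutinases and acetyl xylan esterases. It stood at 349, 402 and 386 CPM on high melanin necromass, 294, 279.7 and 299 CPM on low melanin necromass and 1.04, 0.714 and 0.876 CPM on glucose. The high melanin libraries all exceeded the low melanin libraries, by 1.3 times in the mean, and the folds over glucose were 431 and 331. Of the other listed CE5 genes, protein ID 88887 was also under 1 CPM on glucose (0.448 CPM) but had 20.8 CPM on high and 5.14 CPM on low melanin necromass. Protein ID 76732 had 33.6 and 70.0 CPM on the necromass types and 1.84 CPM on glucose.

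Polygalacturonases of family GH28 hydrolyse pectin, and both of those called up were members. Protein ID 91667 stood at 161, 154 and 161 CPM on high melanin necromass, 116, 121 and 103 CPM on low melanin necromass and 0.348, 0.357 and 0.292 CPM on glucose. For protein ID 133383 the values were 101, 96.5 and 98.5 CPM on high melanin necromass, 118, 107 and 128 CPM on low melanin necromass and 0.796, 0.510 and 0.438 CPM on glucose. The first was higher in every high melanin than in every low melanin library and the second lower, with ratios of 1.40 and 0.840. The third listed GH28 gene, protein ID 91734, went the other way and averaged 0.264 CPM on high melanin necromass, 0.186 CPM on low melanin necromass and 1.16 CPM on glucose. Another enzyme of pectin breakdown, the GH105 gene 6699 of a family that removes unsaturated uronic acids from pectic oligosaccharides, had 27.8, 35.0 and 30.4 CPM on high melanin necromass, 23.9, 23.8 and 20.3 CPM on low melanin necromass and 1.34, 0.357 and 0.0974 CPM on glucose. Its glucose values were spread widely, with most of the counts in replicate 1 (27, 7 and 2 counts).

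Protein ID 134448, the only listed GH31 gene and annotated as an alpha-glucosidase, had 133, 144 and 146 CPM on high melanin necromass, 197, 165 and 188 CPM on low melanin necromass and 1.09, 1.02 and 0.536 CPM on glucose. The AA3_3 gene 115868, of an oxidoreductase family known for alcohol oxidases, had 121, 117 and 119 CPM on high melanin necromass, 203, 197 and 178 CPM on low melanin necromass and 0.746, 0.969 and 0.389 CPM on glucose. Both were lower in every high melanin than in every low melanin library, and the AA3_3 ratio of 0.619 was the second lowest of the 64. The other listed AA3_3 gene, protein ID 114133, was far more abundant at 3383 CPM on high and 4564 CPM on low melanin necromass, and reached 13.2 CPM on glucose.

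Among glucan-active enzymes, the GH64 gene 125427 (beta-1,3-glucanase) averaged 90.3 ± 9.78 CPM on high melanin necromass, 74.2 ± 3.59 CPM on low melanin necromass and 0.912 ± 0.140 CPM on glucose (SD, n = 3 each). Its listed relative 125426 stood at 244 and 198 CPM on the necromass types but at 2.74 CPM on glucose. The GH3 gene 82126, of a family rich in beta-glucosidases, averaged 37.3 ± 2.60 CPM on high melanin necromass, 22.0 ± 1.02 CPM on low melanin necromass and 0.20 ± 0.0893 CPM on glucose (SD, n = 3 each). Each of the 8 listed GH3 genes was called up with either necromass type, and 6 of them lay above 1 CPM on glucose. In protein ID 82126 every high melanin library exceeded every low melanin library, at a ratio of 1.70. The last member with a CAZyme tag was a glycosyltransferase, the GT1 gene 43365, at 27.5 ± 3.45 CPM on high melanin necromass, 19.0 ± 3.86 CPM on low melanin necromass and 0.781 ± 0.108 CPM on glucose. The other listed GT1 gene, protein ID 141126, fell to 9.10 CPM on high and 11.2 CPM on low melanin necromass, against 153 CPM on glucose.

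Of the transporter list, the amino acid permease gene 72410 was the most abundant. It had 171, 193 and 172 CPM on high melanin necromass, 228, 231 and 253 CPM on low melanin necromass and 0.597, 0.561 and 0.730 CPM on glucose, and a second amino acid permease gene, protein ID 139450, had 64.1, 68.5 and 70.4 CPM on high melanin necromass, 98.4, 91.8 and 111 CPM on low melanin necromass and 0.199, 0.153 and 0.438 CPM on glucose. Each was lower in all high melanin than in all low melanin libraries, with ratios of 0.753 and 0.673. The family as a whole was mixed. Of 12 listed genes with this Pfam domain, 7 were up and 3 down with high melanin necromass, and 8 up and 3 down on low melanin necromass. The most similar gene outside the rule was protein ID 86271, with 188 CPM on high and 294 CPM on low melanin necromass and 1.15 CPM on glucose. Protein ID 138789 stood at 43.5 and 57.7 CPM on the necromass types, against 213 CPM on glucose.

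Protein ID 45640, an AAA ATPase that carries a transporter class, stood at 157, 169.9 and 165 CPM on high melanin necromass, 139.9, 146 and 133 CPM on low melanin necromass and 0.149, 0.357 and 0.341 CPM on glucose. Its glucose level was 0.186% of its necromass level, the second lowest share among the members. A ferric reductase gene, protein ID 129565, whose family reduces iron at the membrane ahead of uptake, had 38.5, 41.1 and 44.4 CPM on high melanin necromass, 22.3, 44.5 and 23.2 CPM on low melanin necromass and 0.149, 0.306 and 0.243 CPM on glucose. Low melanin replicate 2 held almost double the level of the other low melanin libraries and overlapped the high melanin libraries. A relative with the same class, protein ID 38144, was much more abundant at 1788 CPM on high and 329.6 CPM on low melanin necromass and had 1.43 CPM on glucose.

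The sugar transporter gene 85251 averaged 29.3 ± 2.78 CPM on high melanin necromass, 18.1 ± 2.47 CPM on low melanin necromass and 0.299 ± 0.0527 CPM on glucose (SD, n = 3 each). It was 1 of 31 listed genes with the sugar transporter domain, of which 24 were up and 6 down with high melanin necromass and 23 up and 6 down on low melanin necromass. Protein ID 90255, of the major facilitator superfamily, averaged 18.5 ± 3.08 CPM on high melanin necromass, 16.7 ± 2.57 CPM on low melanin necromass and 0.134 ± 0.0770 CPM on glucose. Of the 56 listed genes with that domain, 29 were up and 22 down with high melanin necromass and 31 up and 19 down on low melanin necromass. Protein ID 88629, an AMP-dependent ligase annotated as a 4-coumarate CoA ligase, had 22.6, 23.2 and 23.8 CPM on high melanin necromass, 14.6, 16.1 and 8.99 CPM on low melanin necromass and 1.39, 0.357 and 0.292 CPM on glucose, and its ratio of 1.76 was the second highest of the 64.

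Genes of signalling and regulation formed a low but varied set. Protein ID 42876, the only listed gene annotated as a mating pheromone receptor of the G protein-coupled kind, had 41.9, 39.0 and 41.4 CPM on high melanin necromass, 24.2, 29.2 and 19.1 CPM on low melanin necromass and 0.497, 0.306 and 0.389 CPM on glucose. All high melanin libraries lay above all low melanin libraries. Protein ID 134387 carries the domain of regulators of G protein signalling, which speed up the shut-off of G proteins, and averaged 33.9 ± 3.11 CPM on high melanin necromass, 27.5 ± 9.10 CPM on low melanin necromass and 0.565 ± 0.339 CPM on glucose. Its high and low melanin libraries overlapped. The other listed genes with this domain, protein IDs 104193 and 142712, were called up too with each necromass type, at 263 and 193 CPM on high and 167 and 147 CPM on low melanin necromass, but had 10.3 and 6.43 CPM on glucose. The receptor and regulator genes were named after their values were seen.

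Of 3 protein kinase genes, which add phosphate to other proteins, protein ID 71880 averaged 23.2 ± 3.77 CPM on high melanin necromass, 21.1 ± 3.70 CPM on low melanin necromass and 0.928 ± 0.475 CPM on glucose (SD, n = 3 each). Protein ID 69332 averaged 19.4 ± 4.38 CPM on high melanin necromass, 24.6 ± 0.716 CPM on low melanin necromass and 0.599 ± 0.360 CPM on glucose, and protein ID 37852 17.2 ± 1.52 CPM on high melanin necromass, 11.7 ± 1.43 CPM on low melanin necromass and 0.913 ± 0.373 CPM on glucose. The first overlapped between the necromass types, the second was lower in every high melanin library and the third higher. The zinc cluster gene 56646, of a class of fungal transcription factors, averaged 16.1 ± 1.31 CPM on high melanin necromass, 19.2 ± 3.49 CPM on low melanin necromass and 0.181 ± 0.0723 CPM on glucose (SD, n = 3 each). It was the only member among the 44 listed genes of the transcription factor list, of which 25 were up and 13 down with high melanin necromass and 27 up and 16 down on low melanin necromass. Protein ID 43937, with a C2H2-type zinc finger, was higher in every high melanin than in every low melanin library, at a ratio of 1.59.

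The nucleoside hydrolase gene 82626, whose family frees bases from nucleosides, had 41.0, 47.7 and 43.3 CPM on high melanin necromass, 46.4, 44.1 and 43.0 CPM on low melanin necromass and 0.547, 0.867 and 0.925 CPM on glucose, with a ratio of 0.989. Its high and low melanin libraries overlapped. Protein ID 72628, the only listed gene of the ribonuclease T2 family of secreted RNA-cleaving enzymes, averaged 17.3 ± 1.80 CPM on high melanin necromass, 21.0 ± 5.65 CPM on low melanin necromass and 0.631 ± 0.315 CPM on glucose. Protein ID 25062, an amidohydrolase with the only peptidase class among the members (M38), averaged 19.1 ± 1.88 CPM on high melanin necromass, 21.7 ± 2.01 CPM on low melanin necromass and 0.529 ± 0.139 CPM on glucose. The short-chain dehydrogenase gene 112810 averaged 24.3 ± 3.17 CPM on high melanin necromass, 16.5 ± 5.67 CPM on low melanin necromass and 0.568 ± 0.384 CPM on glucose, and the cytochrome P450 gene 82946, which has the InterPro entry but not the Pfam tag, 10.8 ± 0.108 CPM on high melanin necromass, 11.0 ± 0.148 CPM on low melanin necromass and 0.315 ± 0.149 CPM on glucose (SD, n = 3 each). The disulphide oxidoreductase gene 80325 averaged 23.4 ± 3.97 CPM on high melanin necromass, 16.4 ± 2.30 CPM on low melanin necromass and 0.248 ± 0.0440 CPM on glucose, and protein ID 7508, with the third highest ratio of the 64 (1.70) and only a KOG class, 22.5 ± 2.34 CPM on high melanin necromass, 13.2 ± 2.27 CPM on low melanin necromass and 0.532 ± 0.0879 CPM on glucose. All 6 necromass libraries of the P450 gene lay between 10.7 and 11.2 CPM.

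The 2 members with NACHT and WD40 domains, a layout of fungal receptors linked to recognition of non-self, stayed near 20 CPM or lower. Protein ID 74784 averaged 21.2 ± 2.84 CPM on high melanin necromass, 15.6 ± 2.09 CPM on low melanin necromass and 0.151 ± 0.0883 CPM on glucose and protein ID 56459 19.8 ± 2.28 CPM on high melanin necromass, 12.1 ± 1.38 CPM on low melanin necromass and 0.548 ± 0.136 CPM on glucose (SD, n = 3 each). High melanin libraries exceeded low melanin libraries for each. The Pfam NACHT domain was carried by 5 listed genes, of which 5 were called up on high and 4 on low melanin necromass.

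Genes without annotation included the third most abundant member. Protein ID 123303 had 186, 169 and 199 CPM on high melanin necromass, 137, 158 and 127 CPM on low melanin necromass and 0.448, 0.663 and 0.438 CPM on glucose. Protein ID 53831 stood at 105, 98.3 and 105 CPM on high melanin necromass, 71.9, 84.9 and 71.3 CPM on low melanin necromass and 0.796, 0.714 and 0.536 CPM on glucose, and protein IDs 33310 and 139970 averaged 52.2 and 46.6 CPM on high and 31.2 and 31.9 CPM on low melanin necromass. In each of these 4 genes the high melanin libraries lay above the low melanin libraries. The 22 genes ran from 10.5 to 163 CPM in the necromass average, with a median of 18.2. Of these 22, 20 had a ratio above 1, against 71.9% of all 64 members and 35.4% of all tested genes. The rule bounded this ratio, so the count is a description. The highest ratio of all 64 was that of protein ID 130314, with 30.5, 28.3 and 33.5 CPM on high melanin necromass, 15.1, 21.0 and 12.1 CPM on low melanin necromass and 0.0497, 0.102 and 0.146 CPM on glucose.

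**Figure D2:**
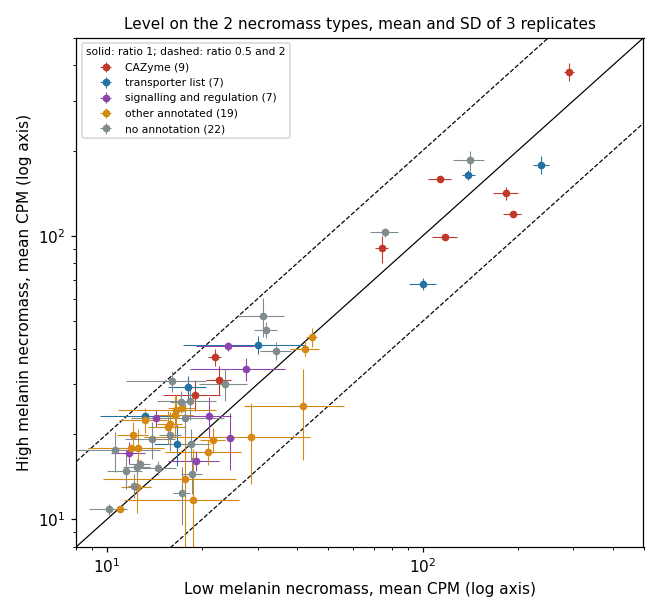
Mean CPM on high melanin necromass (y, log axis) against mean CPM on low melanin necromass (x, log axis) for the 64 genes, with the SD of 3 replicates as bars and colours by role. The solid line marks a ratio of 1 and the dashed lines the ratios 0.5 and 2 that the rule set; 46 points lie above the solid line and 18 below it.

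Ratios of high to low melanin necromass are bounded by the rule and are given as a description. They ran from 0.598 to 1.92 with a median of 1.26, and 46 of the 64 genes had a ratio above 1 (71.9%, against 35.4% of all tested genes, whose median ratio was 0.916). With TMM factors the median ratio of all tested genes was 0.990 (a median log2 ratio of -0.01, against -0.13 with column totals), and 49 members lay above 1 (76.6%, against 48.4%). The nucleoside hydrolase 82626, the P450 gene 82946 and the rhodanese-like gene 75852 moved across a ratio of 1 with that scaling. Every high melanin library exceeded every low melanin library for 32 members, against a background of 16.4%, and lay below every one for 8 members, against a background of 35.3%. In edgeR's quasi-likelihood fit 16 members had an adjusted p under 0.05 with a higher level on high melanin necromass, against a background of 5.26%, and 1, the AA3_3 gene 115868, with a lower level, against a background of 3.93%. Nothing is read from these counts, since the window on the ratio chose the members.

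By role, the ratio had a median of 1.3 over the CAZymes, 1.18 over the transporter list, 1.24 over signalling and regulation, 1.05 over the other annotated genes and 1.28 over the genes without annotation. Members of a role did not move as one. Of the 9 CAZymes, 6 had a ratio above 1, and the GH31, AA3_3 and 133383 GH28 genes had ratios below 1.

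The counts behind the glucose levels were small. The 64 genes had 0 to 33 counts in a glucose library, with a median of 10, against 120 to 9218 counts in a necromass library, and no gene had 0 counts in all 3 glucose libraries. At most 3 counts in each of them were found for 4 members. Protein ID 92851, with a hemerythrin domain that binds oxygen or metal ions, had 1, 0 and 0 counts on glucose, and its pooled necromass level was 929.5 times the pooled glucose level (exact 95% interval 167 to 36732, counting error only). Without glucose replicate 1 its glucose level is 0 and no ratio can be given. Protein ID 91584, a hydrolase of the HAD superfamily, had 2, 1 and 0 counts on glucose, and the same ratio was 427 (146 to 2074). The other 2 such genes, 130314 and 133932, carry no annotation.

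Transcripts that were abundant on necromass were also counted at a low level in the glucose libraries. For the 10 genes with the lowest glucose shares among those with at least 1000 CPM on both necromass types, which include the 3 most abundant genes, the summed glucose level was 0.296%, 0.251% and 0.172% of the necromass level in glucose replicates 1, 2 and 3, and 0.240% in the mean. Glucose levels of the 8 members above 100 CPM summed to 0.368%, 0.363% and 0.285% of their necromass level in the same libraries. For the 29 members under 20 CPM these shares were 3.11%, 3.22% and 2.90%. The glucose limit of 1 CPM allows a smaller share at a higher necromass level, so the rule set part of this difference. The glucose level of 10 members lay within 2 times what the 0.240% share of their own necromass level would bring, and 6 of these were among the 8 above 100 CPM. They include the CE5 gene 139631, at 1.09 times, the GH28 gene 91667, at 1.02 times, and the permease 72410, at 1.26 times. In 41 members the glucose level was over 5 times that share. The same limit bounds these counts by abundance, and they are a description only. How far transcripts from the necromass libraries contributed to the glucose counts was not tested.

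**Figure D3:**
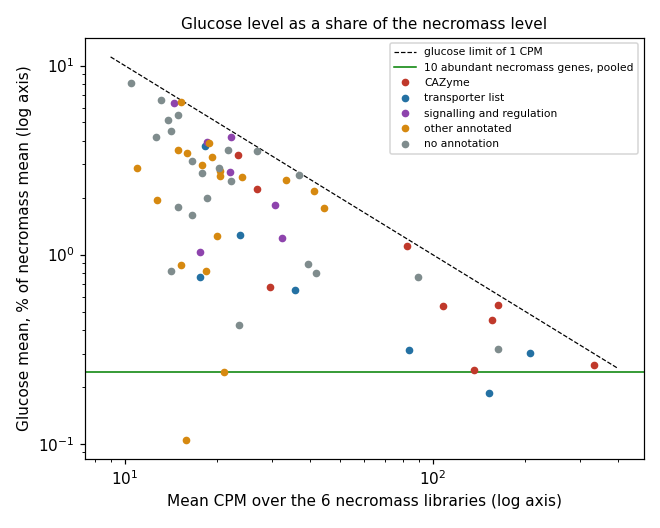
Mean glucose level as a percentage of the mean necromass level (y, log axis) against the mean CPM over the 6 necromass libraries (x, log axis), 1 point per gene, coloured by role. The dashed line is the glucose limit of 1 CPM that the rule set, and the green line the 0.240% share of 10 abundant necromass genes; the 8 genes above 100 CPM lie between 0.186% and 0.544%.

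Replicate spread within a substrate was not used by the rule. The coefficient of variation over 3 replicates had a median of 9.43% on high and 11.8% on low melanin necromass, against 6.91% and 7.25% for all tested genes whose means lay in the same ranges. On glucose it was 34.1%, against 48.3%. These background genes shared only the outer range with the members and were not matched to them in level. Because the coefficient of variation depends on level, the members are not called more or less variable than genes of like level. The members were most often lowest in replicate 1 among the high melanin libraries (33 of 64) and in replicate 3 among the low melanin libraries (39 of 64). On glucose the highest level fell in replicate 1 for 24, in replicate 2 for 23 and in replicate 3 for 17 members. The same shares over all tested genes were not taken, so these counts by replicate are not read as a trait of the members.

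For each member the deviation in log2(CPM + 0.5) of every necromass library from the mean of its type was taken, and the 4 genes with the widest range of these 6 deviations (1.12 to 1.62) were picked after their values were seen. Protein ID 97870, without annotation, followed closely at 1.11. The catalase gene 13147, whose family breaks down hydrogen peroxide, had 12.7, 5.23 and 17.1 CPM on high melanin necromass, 19.9, 10.8 and 25.5 CPM on low melanin necromass and 0.0995, 0.204 and 0.0974 CPM on glucose. The hemerythrin gene 92851 had 16.0, 6.40 and 19.2 CPM on high melanin necromass, 20.4, 8.69 and 24.0 CPM on low melanin necromass and 0.0497, 0 and 0 CPM on glucose. Protein ID 92886, with the NmrA-like domain named after a regulator of nitrogen metabolism in *Aspergillus*, had 26.1, 15.7 and 33.3 CPM on high melanin necromass, 47.2, 25.3 and 53.1 CPM on low melanin necromass and 0.895, 0.969 and 0.633 CPM on glucose. In these 3 genes replicate 2 was the lowest library of both necromass types. Their glucose levels were low in every library. The TauD dioxygenase gene 134184, of a family that includes taurine-degrading enzymes, had 12.3, 22.9 and 23.3 CPM on high melanin necromass, 22.5, 46.0 and 17.0 CPM on low melanin necromass and 0.497, 1.02 and 0.341 CPM on glucose, and here replicate 2 was the highest low melanin library. Across all tested genes, deviations of equally numbered high and low melanin libraries were not correlated (r between -0.05 and -0.02 across genes, which are not independent replicates).

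**Figure D4:**
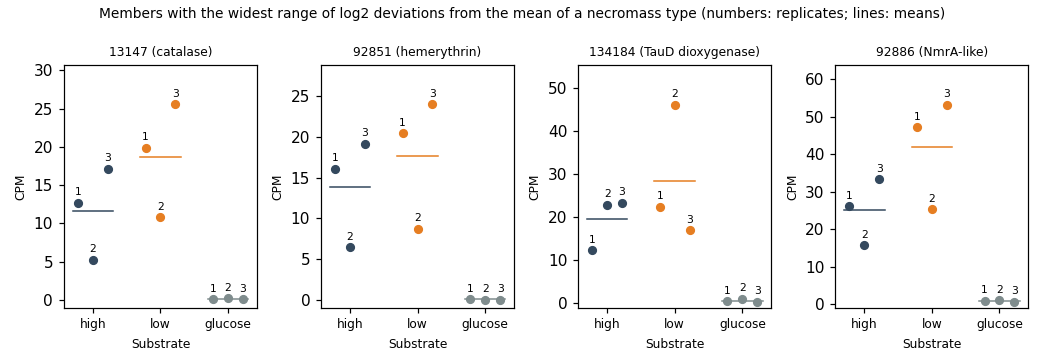
CPM of the 4 members with the widest range of log2 deviations from the mean of their necromass type, by substrate, with replicate numbers beside the points and lines at the means of 3 replicates. In the catalase, hemerythrin and NmrA-like genes replicate 2 lies lowest on both necromass types, and the glucose points lie at 1.02 CPM or lower in all 4 genes.

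Most listed catalase and TauD genes were also called up. Of 5 listed catalase genes, 4 were called up and 1 down on each necromass type, and the member was the only one under 1 CPM on glucose. Protein ID 70058 stood at 57.8 CPM on high and 74.7 CPM on low melanin necromass, against 529 CPM on glucose. The other listed hemerythrin gene, protein ID 34165, was called up on both types, with 42.1 and 49.0 CPM, but had 6.97 CPM on glucose. Of 10 listed genes with the NmrA-like domain, 4 were up and 4 down with high melanin necromass, and 5 up and 5 down on low melanin necromass. Of 5 listed TauD genes, 4 were called up and 1 down on each necromass type.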

How the data were processed

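RNA of 9 cultures was sequenced as poly(A) libraries. The deposited table holds the estimated count of each gene made by the authors with kallisto 0.48.0 against RUT-C30 transcripts, as whole numbers without scaling to depth. Reads shared by similar transcripts are divided by estimation, so levels of close paralogs are uncertain. Protein IDs are the last part of each locus tag. No sequences, gene names or positions of RUT-C30 were used, since the reference table covers strain QM6a and shares no locus tag.

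CPM was computed from column totals. Genes that reached 10 counts in 3 or more libraries were fitted with edgeR 4.0.16 under R 4.3.3 (TMM, quasi-likelihood, all 9 samples, Benjamini-Hochberg over 9312 genes) and called at an adjusted p under 0.05 and an absolute log2 fold change of at least 2. The members were chosen on all 3 contrasts, so counts of calls among them describe the choice and test nothing. Replicates are separate cultures. Members and lists were chosen with earlier results of these data known. Annotation came from tags in the study's table, whose fold changes and p-values were not used. The fit was tested on simulated data, where it recovered 194 of 198 genes changed by a log2 fold of 3 in low melanin versus glucose, among 9261 genes, with 1 false call. These changes were few, set equally up and down, and drawn with the spread that the fit had estimated. The many more changes of the real contrasts, and the share that the most abundant genes took on necromass, were not simulated.

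Genes named are the 12 most abundant members, those with CAZyme, peptidase or transporter tags, up to 4 of each other list, the 3 highest and 3 lowest ratios and those beside each limit, others being named after their values were seen. Members that neighbour each other along the genome could not be named. DESeq2 1.42.0 was an alternative. Python 3.11.15 and matplotlib 3.10.9 were also used.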

Additional observations from a re-analysis of the deposited data

How the results depend on the processing

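The rule gave 66 genes with TMM or RLE scaling, 62 of them members, and between 62 and 72 with any 1 library left out. It gave 24 genes with a glucose limit of 0.5 CPM and 130 with 2 CPM, and 119 with a necromass minimum of 5 CPM and 24 with 20 CPM, so the number of members rests on the limits. With the glucose limit applied after taking off the 0.240% share, an alternative added after the data were seen, it gave 81, which include all 64. All 64 stayed called against glucose on both necromass types with RLE factors, DESeq2, no filter, fits of only the 2 groups compared and each library left out. The rule had put every member well above the fold threshold of a call, so these retained calls follow largely from the choice. Over all genes 1789, 2076 and 81 were called for low melanin versus glucose, high melanin versus glucose and high versus low melanin, with ranges of 1733 to 1829, 2029 to 2069 and 51 to 106 when 1 library was left out. The last count was 51 without high melanin replicate 1 and 53 without low melanin replicate 3. With the replicate number as a block the counts were 1779, 2079 and 82 and all 64 members stayed called. Across all tested genes, equally numbered libraries shared little deviation, with correlations from -0.17 to 0.08. Such correlations cannot show whether equally numbered cultures were handled together. Depth limits the glucose side, where 3 counts equal up to 0.153 CPM and a member had a median of 10 counts. Of 1534 single-gene ratios recomputed under other scalings or without 1 library, 1514 moved by less than the replicate SD, 20 moved by more and none against glucose changed sign. The kept sign against glucose likewise follows largely from the rule.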
